A study of Homo sapiens with 12 samples.

Results

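The 52 genes described here lie on human chromosome 14 and were chosen, by name, from a table of 18950 genes because neighbouring genes there were lower together in the brighter of a pair of sorted populations of PC3 cells. They form a pair of blocks. The first, in 14q11-q12, holds 36 members within chr14:20256558-24242674 (GRCh38, GENCODE 29), a span of 3.99 Mb, and the second, in 14q32, holds 16 members within chr14:101964510-105398147, a span of 3.43 Mb. All 52 members passed the minimum used for testing, which was 1 CPM (a count scaled to the size of its library) in at least 3 of the 12 libraries and which 12527 genes of the table passed.

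The libraries are 3 each of PC3 GFP high, PC3 GFP low, DU145 GFP high and DU145 GFP low cells. PC3 and DU145 are established human prostate cancer lines, both grown with 10% serum, and the study asked how cells with active Wnt/β-catenin signaling differ from cells with inactive signaling within one line. GFP high cells are the brightest 10% of a line by green fluorescent protein and were taken as active, and GFP low cells are the dimmest 10% and were taken as inactive. No genetic change or treatment separates the groups beyond the sort, and the labels do not describe the reporter that drives GFP or say whether a line was 1 clone. They also leave unsaid whether the 3 libraries of each group had separate cultures behind them. The p-values given here therefore reflect the spread among these libraries alone, and that spread could be technical.

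Genes that sit side by side on a chromosome usually serve unrelated functions, and each is read from its own promoter. Wnt/β-catenin signaling acts on single genes: β-catenin reaches DNA through TCF/LEF proteins, which bind the short core motif CTTTGA near their target genes. The members include enzymes of DNA repair, proteasome subunits, chromatin and RNA factors, mitochondrial proteins, kinases and motor proteins, and no single pathway joins them.

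Total estimated counts ranged from 13453614 to 21528810 per library, and in the shallowest library a count of 0 was compatible with up to 0.233 CPM (3 counts, counting error only). Libraries of a group differed by 5.71 to 40.0 times the variance of sampling alone, and no library repeated another. The markers of the lines did not all match their labels. PC3 is known for loss of CTNNA1, which encodes α-catenin, yet CTNNA1 averaged 387 CPM in the libraries labelled PC3 GFP high and 408 CPM in those labelled PC3 GFP low, against 436 CPM in DU145 GFP high and 486 CPM in DU145 GFP low. The epithelial adhesion genes EPCAM and CDH1 averaged at most 0.107 CPM and 0.381 CPM in any group, whereas keratin KRT18 averaged 369 CPM in PC3 GFP high, 409 CPM in PC3 GFP low, 1375 CPM in DU145 GFP high and 1956 CPM in DU145 GFP low. PC3 and DU145 below therefore mean the libraries so labelled. Summed fibroblast markers (3 of 4 listed genes in the table) lay between 0.452 and 1.87 CPM in all libraries, endothelial markers between 0.272 and 1.19 CPM, and the leukocyte gene PTPRC averaged at most 0.0683 CPM. CD68, listed with it, averaged 6.66 CPM in PC3 GFP high and 5.12 CPM in PC3 GFP low, against 26.8 CPM in DU145 GFP high and 40.1 CPM in DU145 GFP low, and its part in the results was not tested.

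The TCF/LEF core was looked for before the start of the members. In the 250 bases upstream of the start site, taken from RefSeq (GRCh38.p14) for 51 of the 52 members, CTTTGA or its reverse complement TCAAAG was found in 3 members, SUPT16H, LRP10 and PSMB5, which is 5.88%, against 11.4% of 27305 promoters of the same length (3102 of them). The motif was searched on both strands and within these 250 bases only. The share of the members rests on 3 genes and has no test, and the part of base composition in it was not tested. The 3 windows are shown because they are the ones that hold it, with the motif in capitals, each on its gene's strand. SUPT16H, a subunit of the histone chaperone FACT, lies on the minus strand with its window at chr14:21384020-21384269. LRP10, a lipoprotein receptor of the endosome, has its window at chr14:22871490-22871739 on the plus strand, and PSMB5, a catalytic subunit of the proteasome, has its window at chr14:23035221-23035470 on the minus strand.
SUPT16H: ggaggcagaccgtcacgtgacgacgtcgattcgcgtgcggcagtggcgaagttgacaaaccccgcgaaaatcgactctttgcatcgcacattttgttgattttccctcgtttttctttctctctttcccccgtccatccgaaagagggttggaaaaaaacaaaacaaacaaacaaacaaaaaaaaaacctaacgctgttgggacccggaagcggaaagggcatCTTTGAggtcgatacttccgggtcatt
LRP10: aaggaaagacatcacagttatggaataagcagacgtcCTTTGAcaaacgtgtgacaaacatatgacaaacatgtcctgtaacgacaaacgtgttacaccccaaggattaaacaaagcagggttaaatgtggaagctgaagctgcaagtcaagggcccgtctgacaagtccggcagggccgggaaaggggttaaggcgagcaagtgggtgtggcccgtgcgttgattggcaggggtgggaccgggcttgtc
PSMB5: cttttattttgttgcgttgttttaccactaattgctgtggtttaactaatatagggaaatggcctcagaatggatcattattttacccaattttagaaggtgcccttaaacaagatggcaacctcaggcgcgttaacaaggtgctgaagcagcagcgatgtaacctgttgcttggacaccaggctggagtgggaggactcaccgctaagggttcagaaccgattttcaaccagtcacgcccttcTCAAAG

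A match is a description of these letters, not a binding site. The member promoters had a median GC content of 61.2% against 58.0% over all promoters, and a median of 17 CpG dinucleotides per window against 11, with no test of either. They varied widely among themselves, between 43.2% GC with 1 CpG in the ZNF219 window and 87.2% GC with 58 CpG in the PACS2 window. The windows of 4 pairs of members on opposite strands overlap. NEDD8 and GMPR2 share 246 bases, PSME2 and RNF31 share 236, XRCC3 and ZFYVE21 share 142, and OSGEP and APEX1 share 87. The pair with the shortest shared stretch is printed as an example. OSGEP, the catalytic subunit of a tRNA-modifying complex, and APEX1, the endonuclease of base excision repair, point away from each other with starts 413 bases apart, and the 87 bases common to their windows are printed in capitals. The OSGEP window is chr14:20454813-20455062 on the minus strand and the APEX1 window is chr14:20454976-20455225 on the plus strand.
OSGEP: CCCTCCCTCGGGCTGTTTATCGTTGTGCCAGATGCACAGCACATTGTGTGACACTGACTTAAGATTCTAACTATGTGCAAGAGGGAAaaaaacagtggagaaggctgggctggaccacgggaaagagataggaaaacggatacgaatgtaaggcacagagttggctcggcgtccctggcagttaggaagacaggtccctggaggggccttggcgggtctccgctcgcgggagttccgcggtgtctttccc
APEX1: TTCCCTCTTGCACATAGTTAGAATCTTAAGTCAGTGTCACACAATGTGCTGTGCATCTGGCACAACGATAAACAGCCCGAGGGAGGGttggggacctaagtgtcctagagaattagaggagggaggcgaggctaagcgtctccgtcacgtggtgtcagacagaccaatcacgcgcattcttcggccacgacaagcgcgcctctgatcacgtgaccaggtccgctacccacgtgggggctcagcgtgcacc

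In the PC3 sort, the comparison that chose them, 48 of the 52 members had a lower mean log2 level in GFP high than in GFP low cells, and the values that follow for this comparison are a description with no test. The median member stood at 84.1% of its GFP low level, a log2 difference of -0.25. Among the 52, 17 stood below 80% of the GFP low level, 20 between 80 and 90%, 11 between 90 and 100%, and 4 at or above it. The lowest, MDP1, stood at 56.6% and the highest, TRAF3, at 132.2%. In 33 members every PC3 GFP high library lay below every PC3 GFP low library, and in 1 member it lay above. The same held for 16.4% of the 12527 genes in the lower direction and 30.4% in either direction. The median over all 12527 genes was -0.02, and 53.6% of them were below 0. Fewer cells with a gene active and less RNA per cell cannot be told apart in such bulk libraries.

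The blocks had equal medians. In 14q11-q12, 34 of 36 members were below 0, with 22 members without overlap in the lower direction. In 14q32 the counts were 14 of 16 and 11. The median was -0.25 in each. When every library was shifted to the same median level, which moved the median of all genes in the PC3 sort from -0.02 to 0.02, 45 of 52 members were still below 0 but 16, not 33, had groups without overlap.

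**Figure D1:**
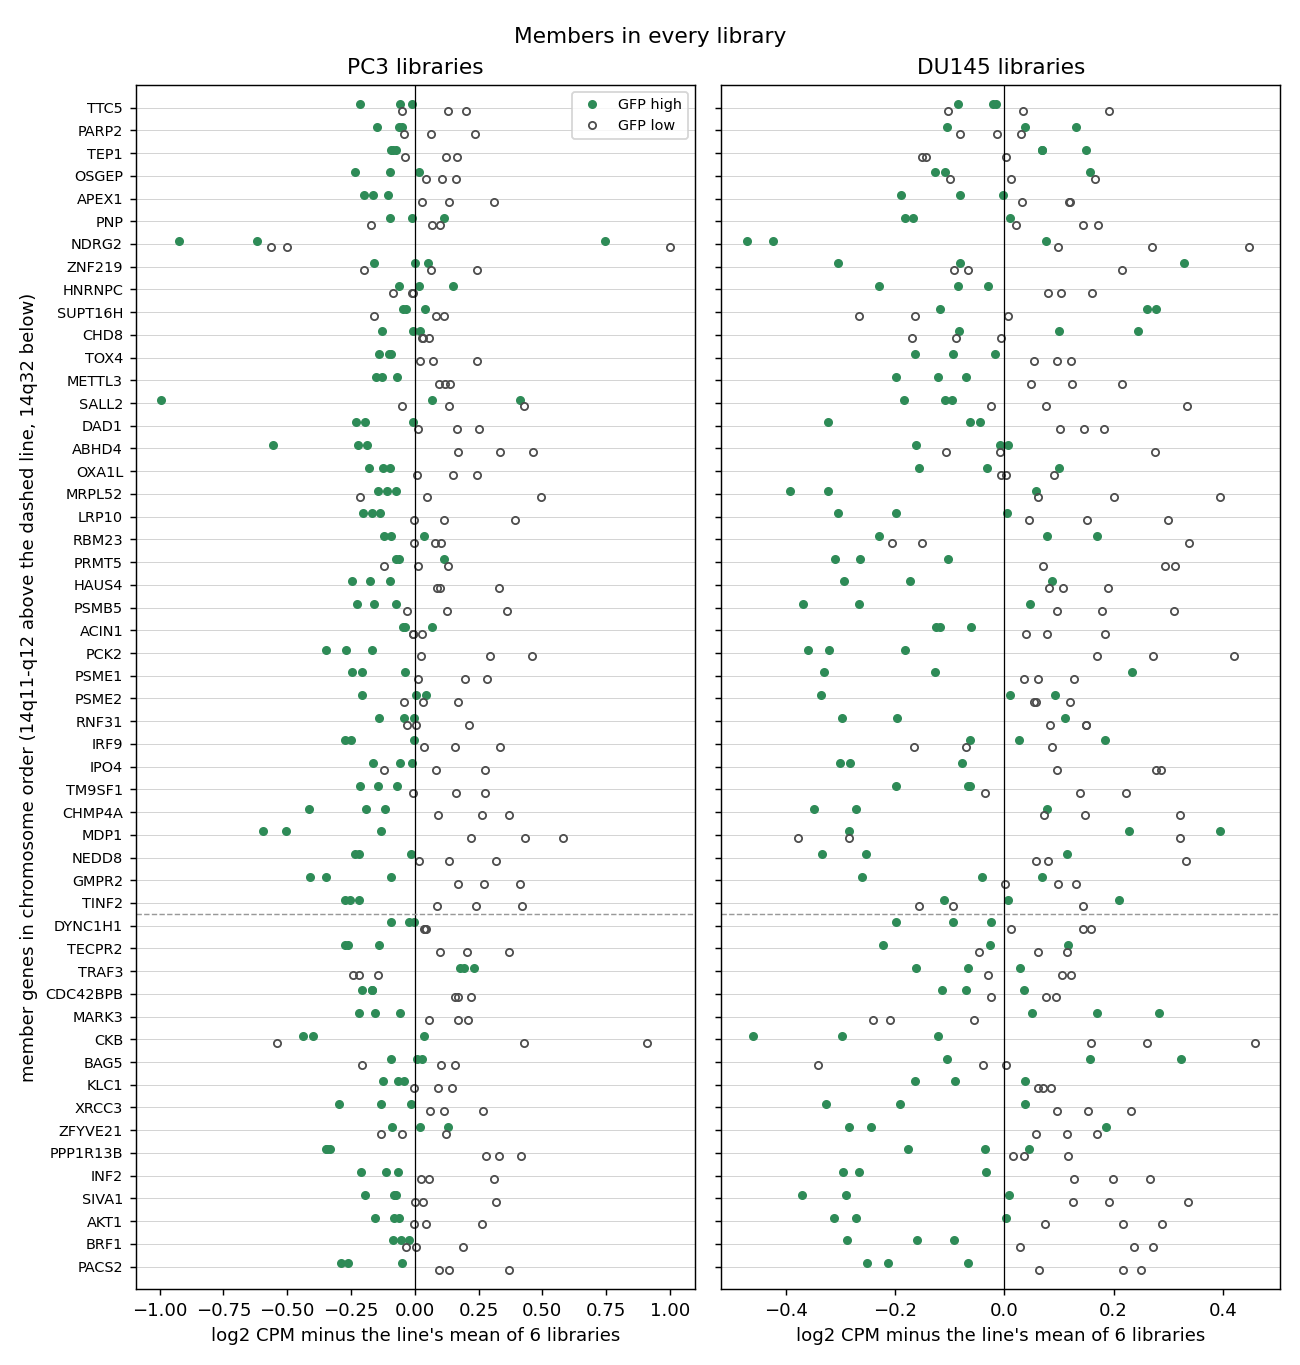
Level of each of the 52 members in every library, as log2 CPM minus the mean of the 6 libraries of its line, in chromosome order from TTC5 at the top to PACS2 at the bottom. Filled points are GFP high libraries and open points GFP low libraries, with PC3 on the left and DU145 on the right, whose horizontal axes differ in scale; values past 1 in either direction are drawn at 1. In PC3 the filled points lie left of all open points for 33 members and right of them for TRAF3 alone, and in DU145 for 25 and 2 members. NDRG2 had 3 estimated counts in all PC3 libraries together, so its PC3 points carry no information on the sort.

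The 6 members lowest in PC3 GFP high cells came from metabolism and signalling. MDP1, a magnesium-dependent phosphatase, had 4.55, 5.90 and 4.27 CPM in the PC3 GFP high libraries, against 7.52, 9.66 and 8.71 CPM in the PC3 GFP low libraries. It had 3.78, 5.38 and 6.04 CPM in the DU145 GFP high libraries, against 5.75, 3.77 and 3.54 CPM in the DU145 GFP low libraries. The PC3 sorts did not overlap and the DU145 sorts did. Its log2 difference in PC3 was -0.82 ± 0.24 (SE from the fit over all 12 libraries). MDP1 lies within the read-through gene NEDD8-MDP1 on the same strand and its estimated counts were whole numbers in 0 of 12 libraries, so reads may have been divided between the genes.

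PPP1R13B, also called ASPP1, which binds p53 and raises its activity at apoptosis genes, had 20.1, 19.9 and 19.8 CPM in PC3 GFP high cells, against 31.7, 33.7 and 30.6 CPM in PC3 GFP low cells. Within each sort the 3 libraries lay close together and the sorts stood far apart, at 62.3% of the GFP low level or -0.68 ± 0.09. In DU145 it had 53.9, 51.0 and 46.2 CPM in GFP high cells, against 52.8, 53.6 and 56.7 CPM in GFP low cells, which overlapped.

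ABHD4, a lipase that acts on N-acyl phospholipids, had 16.4, 21.1 and 20.6 CPM in PC3 GFP high libraries, against 30.3, 33.2 and 27.1 CPM in PC3 GFP low libraries. GMPR2, which converts GMP to IMP, had 48.1, 59.9 and 50.2 CPM in PC3 GFP high libraries, against 77.2, 85.1 and 71.8 CPM in PC3 GFP low libraries. Both were without overlap in PC3, at 64.0% and 67.4% of the GFP low level, and both overlapped in DU145. ABHD4 had 20.3, 18.1 and 20.1 CPM in DU145 GFP high cells, against 20.2, 18.8 and 24.5 CPM in DU145 GFP low cells, and GMPR2 had 36.9, 43.0 and 46.4 CPM in GFP high cells, against 48.5, 47.4 and 44.3 CPM in GFP low cells. CKB, the brain-type creatine kinase, was at 1.68, 1.64 and 2.28 CPM in PC3 GFP high cells, against 4.16, 2.98 and 1.52 CPM in PC3 GFP low cells. The CKB values overlapped and lay near the lower limit of the table, so its difference of -0.53 ± 0.28 in PC3 is loose. NDRG2 had an equally low fitted difference in PC3 but only 3 estimated counts there, and no sort difference is given for it.

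PCK2, the mitochondrial form of the gluconeogenic enzyme PEPCK, stood apart in both lines. It had 40.9, 43.2 and 46.4 CPM in PC3 GFP high libraries, against 63.9, 71.6 and 53.0 CPM in PC3 GFP low libraries. It had 30.0, 29.3 and 33.1 CPM in DU145 GFP high libraries, against 45.3, 42.2 and 50.2 CPM in DU145 GFP low libraries. In neither line did the sorts overlap. The difference was -0.52 ± 0.11 in PC3 and -0.57 ± 0.11 in DU145, where the adjusted p was 0.00596 (limma, Benjamini-Hochberg over 12527 genes).

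TRAF3 was the exception in the other direction. This adaptor of tumour necrosis factor receptors, which restrains non-canonical NF-κB signalling, had 105, 102 and 101 CPM in PC3 GFP high libraries, against 76.7, 75.5 and 80.6 CPM in PC3 GFP low libraries, all of them higher in GFP high cells (0.40 ± 0.07 on the log2 scale). In DU145 it had 155, 166 and 145 CPM in GFP high cells, against 177, 175 and 159 CPM in GFP low cells, and the difference of -0.13 ± 0.07 did not pass the test (limma adjusted p = 0.169). The member next to it, CDC42BPB, is a kinase that acts downstream of CDC42 on actomyosin. It lies on the minus strand, and 20.9 kb separate the end of TRAF3 from the end of CDC42BPB. CDC42BPB stood in PC3 at 276, 276 and 268 CPM in GFP high cells, against 345, 361 and 348 CPM in GFP low cells (-0.36 ± 0.06). The pair lay on opposite sides of 0 in PC3. CDC42BPB overlaps AMN on the other strand, and its counts were whole in 0 of 12 libraries. The other 3 members at or above their GFP low level were HNRNPC at 105.1%, ZFYVE21 at 102.8% and PNP at 100.2%, each with overlapping libraries. HNRNPC, which packages nuclear pre-mRNA, had 667, 730 and 632 CPM in PC3 GFP high cells, against 653, 655 and 620 CPM in PC3 GFP low cells. ZFYVE21, a lipid-binding protein of focal adhesions and endosomes, had 24.3, 26.2 and 28.3 CPM in PC3 GFP high cells, against 23.6, 28.1 and 24.9 CPM in PC3 GFP low cells. In DU145 ZFYVE21 had 32.5, 31.6 and 43.8 CPM in GFP high cells, against 43.3, 41.7 and 40.1 CPM in GFP low cells, overlapping as well.

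By role, the 5 members of DNA repair and genome maintenance were all without overlap in the lower direction in PC3, with a median of -0.30. APEX1 had 230, 239 and 224 CPM in PC3 GFP high cells, against 282, 319 and 262 CPM in PC3 GFP low cells. TINF2, which holds the telomere-protecting shelterin complex together, had 37.7, 39.0 and 38.1 CPM in PC3 GFP high cells, against 53.7, 60.8 and 48.3 CPM in PC3 GFP low cells. In DU145 the same role had a median of 0.04. APEX1 had 286, 308 and 325 CPM in DU145 GFP high cells, against 354, 333 and 353 CPM in DU145 GFP low cells, without overlap but not past the test (-0.18 ± 0.08, limma adjusted p = 0.0957). TINF2 overlapped at 48.1, 44.3 and 55.4 CPM in GFP high cells, against 44.8, 43.0 and 52.9 CPM in GFP low cells. PARP2, which makes poly(ADP-ribose) at DNA breaks, TEP1, a telomerase-associated protein, and XRCC3, of homologous recombination, stood at 88.8%, 89.1% and 81.5% of GFP low in PC3.

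The 5 members of the proteasome and of ubiquitin-like pathways had a median of -0.31 in PC3, and 3 of them did not overlap. PSMB5 had 167, 177 and 159 CPM in PC3 GFP high cells, against 204, 240 and 182 CPM in PC3 GFP low cells. PSME1, a subunit of the PA28 cap that opens the proteasome, stood at 79.7% of GFP low, and NEDD8, the modifier that switches on cullin ligases, at 80.5%. PSME2, the partner of PSME1 in the same cap, stood at 92.9%, and RNF31, the catalytic subunit of the linear ubiquitin ligase LUBAC, at 91.8%, with overlapping sorts in both cases. PSME2 and RNF31 overlap on opposite strands.

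The 8 members of chromatin and transcription differed little in PC3, with a median of -0.09 and 2 of 8 without overlap, CHD8 and TOX4. CHD8, a remodeller known to bind β-catenin, had 199, 220 and 217 CPM in PC3 GFP high cells, against 222, 226 and 222 CPM in PC3 GFP low cells, 94.9% of the level. SUPT16H was alike in both PC3 sorts, at 330, 328 and 348 CPM in GFP high cells, against 358, 303 and 366 CPM in GFP low cells. The 5 members of RNA processing had a median of -0.12, and METTL3, which writes N6-methyladenosine on mRNA, had 53.5, 54.4 and 56.7 CPM in PC3 GFP high cells, against 64.6, 63.7 and 65.5 CPM in PC3 GFP low cells, with no overlap. Its neighbour TOX4, on the other strand, overlaps it at the ends of both genes. With the strand of counting unstated, reads in that shared stretch cannot be told apart.

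The 8 members of mitochondria and metabolism had the lowest median of the roles in PC3, -0.53, and 5 did not overlap. OXA1L, which inserts proteins into the inner mitochondrial membrane, had 120, 123 and 116 CPM in PC3 GFP high cells, against 146, 155 and 132 CPM in PC3 GFP low cells, and 121, 132 and 145 CPM in DU145 GFP high cells, against 136, 135 and 144 CPM in DU145 GFP low cells. Its sorts were apart in PC3 and overlapped in DU145. MRPL52, of the mitochondrial ribosome, stood at 85.9% of GFP low in PC3. The 10 members of signalling and cell death had a median of -0.29, with 7 without overlap in the lower direction and TRAF3 in the higher. The 11 members of the cytoskeleton and trafficking also had a median of -0.29, with 9 without overlap. DYNC1H1, the heavy chain of cytoplasmic dynein and the member with the highest level, had 1019, 1006 and 958 CPM in PC3 GFP high cells, against 1049, 1047 and 1053 CPM in PC3 GFP low cells, a small difference with no overlap.

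The same pattern did not end at the blocks. Of 425 tested genes of chromosome 14, 83.1% were below 0 in the PC3 sort and 40.5% were without overlap in the lower direction, with a median of -0.21. These include the 52 members. Of the 373 others, 81.8% were below 0 and 37.3% were without overlap in the lower direction, with a median of -0.21. The 314 tested genes in the 77.7 Mb between the blocks had a median of -0.19, with 256 below 0, 104 without overlap in the lower direction and 16 in the higher. The 54 genes inside the blocks that are not members had a median of -0.25, with 44 below 0, 33 lower and 2 higher without overlap. Medians of 5 Mb bins were below 0 in every bin that held a tested gene, from -0.02 in the bin that starts at 35 Mb to -0.36 in the bin that starts at 25 Mb, which held 3 genes. The members were chosen on this contrast, so the gap between their median and that of the genes between the blocks has no test.

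**Figure D2:**
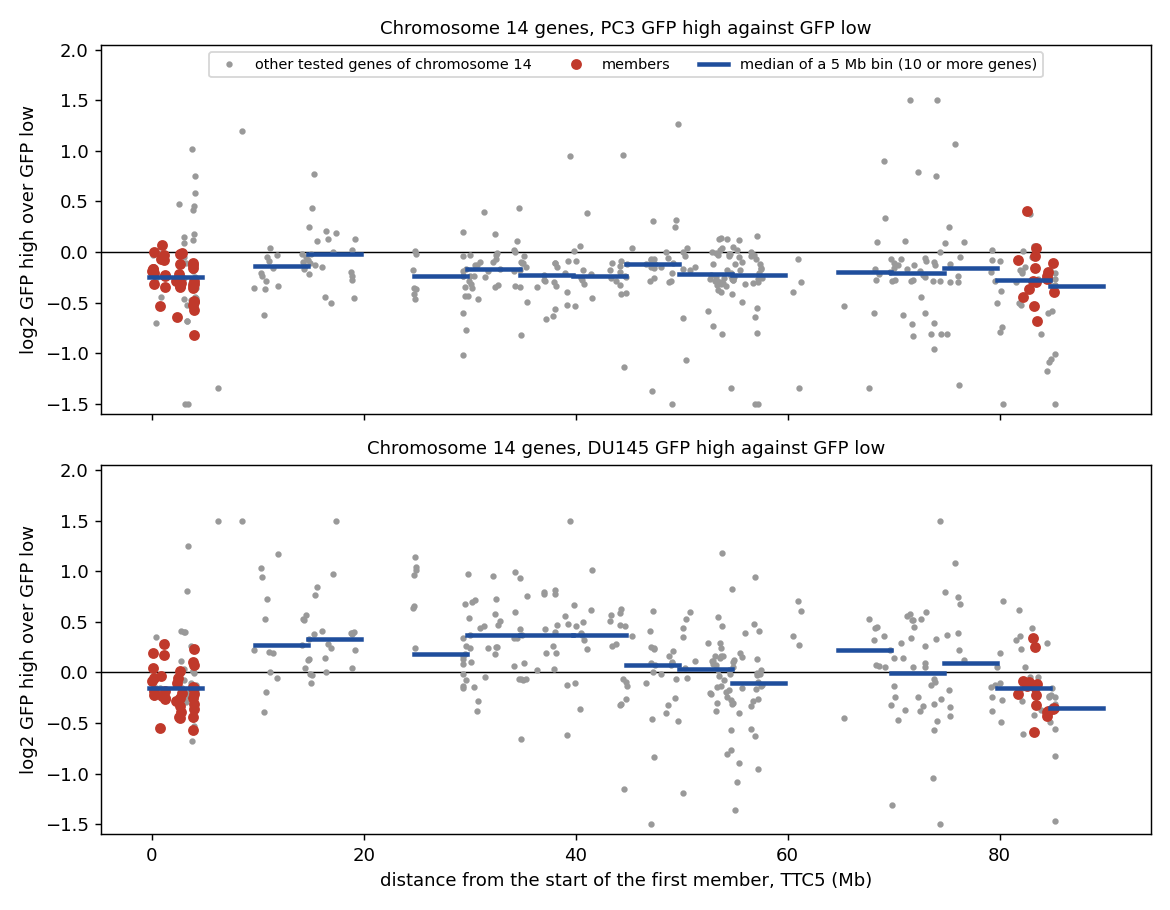
log2 GFP high over GFP low of the 425 tested genes of chromosome 14 against distance from the start of TTC5, the first member, in Mb, for PC3 above and DU145 below. Red points are the 52 members, grey points the other tested genes, and blue lines the medians of 5 Mb bins with 10 or more genes; values past 1.5 in either direction are drawn at 1.5. In PC3 the bin medians lie below 0 along the whole chromosome, and in DU145 they lie above 0 along much of the stretch between the blocks, whose median there is 0.14. The genes of that stretch had a median GC content of 43.9%, against 53.0% for the members, and its part in DU145 was not tested.

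Set beside the other chromosomes, chromosome 14 had the lowest median of 23 in the PC3 sort. The next were chromosome X at -0.14 and chromosome 11 at -0.08, and the highest was chromosome 18 at 0.14. It was also the lowest of 23 under each of the 23 other settings tried, with medians from -0.23 to -0.17. These ranks include the 52 members, which were chosen on this contrast, and are a description with no test. Without the members, the 373 other genes of chromosome 14 had a median of -0.21, and of -0.24 to -0.16 under the other settings. In the DU145 sort chromosome 14 had a median of 0.04, the thirteenth lowest, and the ends of the range were chromosome 22 at -0.36 and chromosome 18 at 0.41. Under the 23 other settings its DU145 median ran from -0.07 to 0.05 and its rank from the sixth to the sixteenth lowest. The median was below 0 under 5 of them, and it was lowest with the trend in GC content and length removed.

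**Figure D3:**
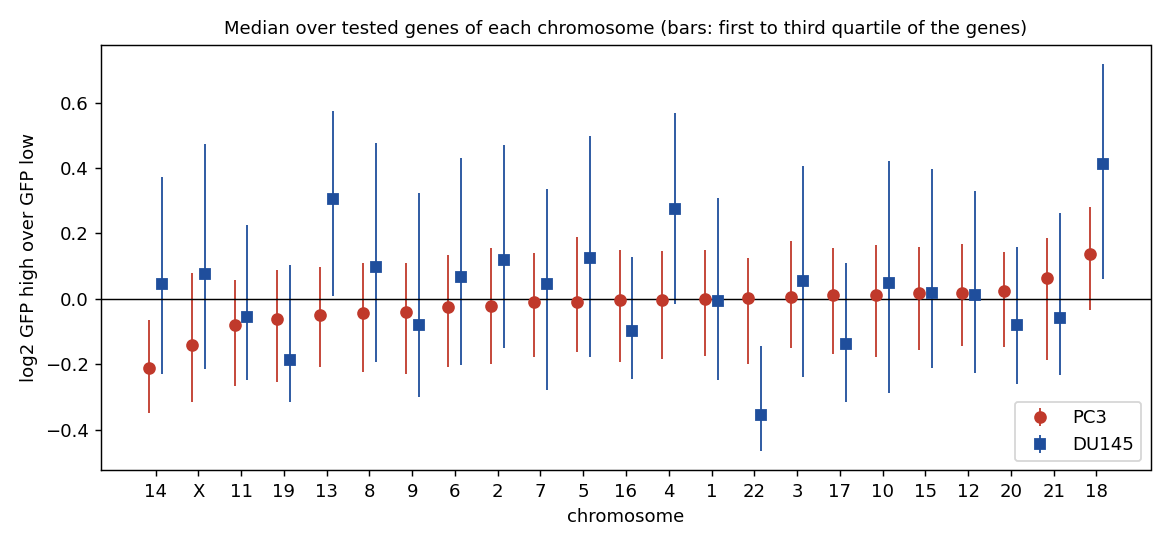
Median log2 GFP high over GFP low of the tested genes of each chromosome, ordered by the PC3 median, with PC3 as red circles and DU145 as blue squares; bars span the first to the third quartile of the genes of a chromosome and are not errors of the median. Chromosome 14 lies lowest in PC3, at -0.21, and near the middle in DU145, at 0.04. Its genes include the 52 members, which were chosen on the PC3 sort.

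Inside the blocks, the non-members furthest below 0 in PC3 lay further below it than any member. SLC22A17, a membrane protein of the organic ion transporter family, had 0.287, 0.0806 and 0.537 CPM in PC3 GFP high cells, against 0.970, 0.974 and 0.590 CPM in PC3 GFP low cells, near the lower limit of the table. DHRS2, a short-chain dehydrogenase, had 0.714, 1.10 and 0.845 CPM in PC3 GFP high cells, against 2.77, 3.10 and 2.42 CPM in PC3 GFP low cells, and ADSSL1, of the purine nucleotide cycle, had 4.31, 3.79 and 3.45 CPM in GFP high cells, against 7.48, 11.6 and 7.44 CPM in GFP low cells. DHRS2 went the other way in DU145, where it was higher in GFP high cells by 1.25 ± 0.29 (limma adjusted p = 0.0114). On the high side stood MMP14, a membrane-bound matrix metalloproteinase, with 18.1, 19.6 and 19.7 CPM in PC3 GFP high cells, against 13.1, 15.5 and 12.8 CPM in PC3 GFP low cells and no overlap. TSSK4, a testis kinase, and CARMIL3 were nominally higher but reached at most 2.48 CPM in any PC3 library.

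The summed level of the members gives their size in the cell. The 36 members of 14q11-q12 together had 3713, 3925 and 3669 CPM in PC3 GFP high libraries, against 4184, 4438 and 3925 CPM in PC3 GFP low libraries, 90.1% of the GFP low mean. The highest GFP high library was level with the lowest GFP low library. The 16 members of 14q32 had 2389, 2366 and 2278 CPM in PC3 GFP high libraries, against 2571, 2720 and 2586 CPM in PC3 GFP low libraries, 89.3% of the mean and with no overlap. The 314 genes between the blocks stood at 90.4% in PC3, a level close to that of either block.

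In DU145 the sums of both blocks were lower in GFP high cells as well. The 14q11-q12 members had 3697, 3923 and 4138 CPM in DU145 GFP high libraries, against 4571, 4296 and 4508 CPM in DU145 GFP low libraries, 87.9%, and the 14q32 members had 3061, 3212 and 3180 CPM in GFP high cells, against 3812, 3523 and 3805 CPM in GFP low cells, 84.9%. Neither pair of sums overlapped. The genes between the blocks stood at 99.3% in DU145, at 13109 ± 465 CPM in GFP high cells and 13197 ± 160 CPM in GFP low cells (SD, n = 3 each). The deposited levels of a whole library do not add to the same total, and in DU145 the whole libraries too summed lower in GFP high cells. They summed to between 959109 and 1044712 CPM in DU145 GFP high libraries, against 1071292 to 1124123 CPM in DU145 GFP low libraries, and to between 933731 and 955776 CPM in PC3 GFP high libraries, against 926389 to 1002986 CPM in PC3 GFP low libraries. Base composition differed as well. The median GC content of the transcripts was 51.5% for the members of 14q11-q12, 56.7% for those of 14q32 and 43.9% for the genes between. Across 12510 genes DU145 differences had a Spearman correlation of -0.63 with GC content. The part of the scaling and of GC content in the DU145 sums was not tested.

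**Figure D4:**
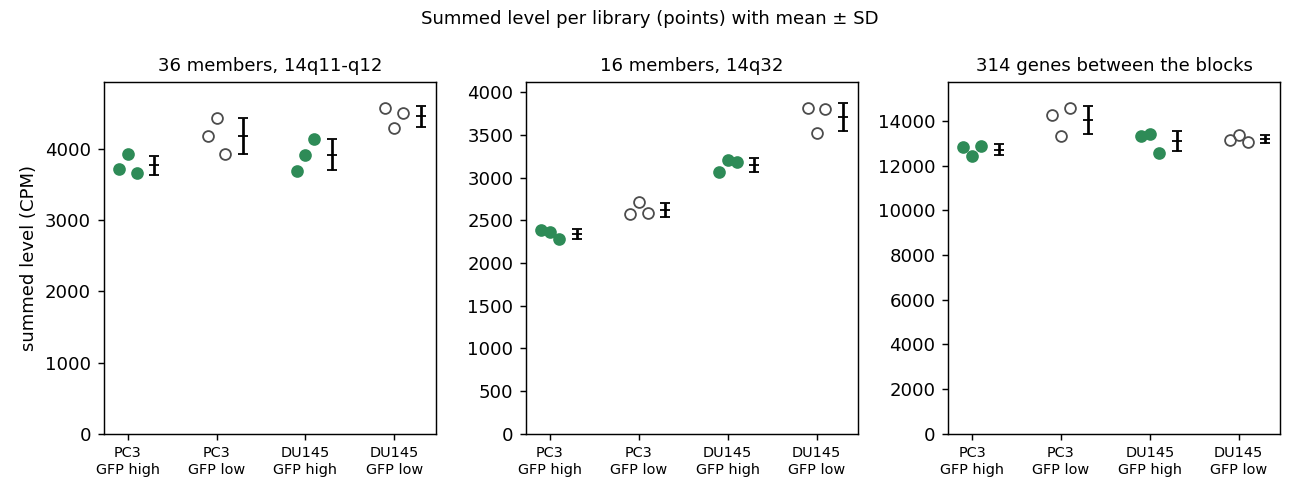
Summed level in CPM of the 36 members of 14q11-q12, the 16 members of 14q32 and the 314 genes between the blocks, 1 point per library, with the mean and SD of 3 libraries beside the points. GFP high libraries are filled and GFP low libraries open. In DU145 the sorts stand apart for both blocks, at 87.9% and 84.9% of GFP low, and stand together for the genes between them, at 99.3%. Whole DU145 libraries also summed lower in GFP high (959109 to 1044712 CPM) than in GFP low (1071292 to 1124123 CPM). The genes between are poorer in GC (median 43.9%, against 51.5% and 56.7% for the members of the blocks). The part of the library totals and of GC content was not tested. In PC3 all 3 sums lie near 90% of GFP low.

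The sort of DU145 cells was not used to choose the members and was tested. PCK2, PRMT5, IPO4, INF2 and AKT1 fell in DU145 GFP high cells with the smallest p-values, and 16 of 52 members fell, 1 rose (MARK3) and 35 did not pass the limma test at an adjusted p of 0.05. Among all 12527 genes 13.9% fell and 13.1% rose. The members' 30.8% called lower stood above the first of these values and their 1 rise below the second. DU145 differences followed GC content, however, with a Spearman correlation of -0.63 across 12510 genes, which share their libraries, against -0.10 in PC3. The members' transcripts were richer in GC, at a median of 53.0% against 48.5% of all tested genes. Among 3108 other genes within the middle range of the members' GC content (48.4 to 56.6%), 20.9% fell and 3.67% rose. With the trend in GC content and length removed, 16 members fell and 2 rose, against 15.5% and 6.67% of all genes, but these were not all the same members. Of the 16 that fell in the first fit 12 kept the call and 4 lost it (BRF1, PACS2, ACIN1 and XRCC3), and PNP, TOX4, MRPL52 and NEDD8 were added. MARK3 lost its call as higher, and ZNF219 and TINF2 were called higher in its place. PCK2, PRMT5, IPO4, INF2 and AKT1 kept theirs.

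The median of the members in DU145 was -0.21, against -0.01 over all genes, and the sorts did not overlap for 25 members in the lower direction (22.6% of all genes) and 2 in the higher (17.9% of all genes). In 14q11-q12 9 of 36 members fell, and in 14q32 7 of 16 fell and 1 rose. Among other genes in the middle GC range of the 14q11-q12 members, 15.7% fell and 5.46% rose. In the range of the 14q32 members 27.4% fell and 1.74% rose, and the part of GC content in the split was not tested. Below 0 in both lines were 38 of the 52 members (28.0% of all genes). Without overlap in the lower direction were 15 members in both lines (3.64% of all genes), and 18 in PC3 and not in DU145 (12.8% of all genes). The PC3 values in each of these counts were used to choose the members, so nothing is read from them, and they are no test of a difference between lines. The count of 16 rested on single libraries. It was 4, 2 and 25 without DU145 GFP high replicates 1, 2 and 3, and 4 and 2 without DU145 GFP low replicates 1 and 3. Calls over all 12527 genes moved with it. In the same order, 511, 614 and 2820 genes were lower, and then 704 and 532, in place of 1742.

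PRMT5, which places symmetric dimethyl marks on arginine in histones and splicing proteins, had 165, 170 and 190 CPM in DU145 GFP high libraries, against 254, 214 and 250 CPM in DU145 GFP low libraries, with no overlap, and fell by 0.45 ± 0.09 (limma adjusted p = 0.00656). In PC3 it had 235, 266 and 234 CPM in GFP high cells, against 248, 269 and 226 CPM in GFP low cells, at 99.0%. PRMT5 and PCK2 were the 2 of 17 calls that held under every alternative, with limma adjusted p-values of at most 0.0375 for PRMT5 and 0.0361 for PCK2. PRMT5 overlaps PRMT5-AS1 on the other strand.

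IPO4, an importin that carries histones and ribosomal proteins into the nucleus, had 222, 220 and 256 CPM in DU145 GFP high libraries, against 328, 289 and 330 CPM in DU145 GFP low libraries (-0.44 ± 0.10, limma adjusted p = 0.0102). In PC3 it had 233, 226 and 210 CPM in GFP high cells, against 249, 285 and 216 CPM in GFP low cells, which overlapped. The groups thus stood apart in DU145 alone for IPO4, as they did for PRMT5, though the difference between lines was not tested because the members were chosen in PC3.

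The last 5 members of 14q32, INF2, SIVA1, AKT1, BRF1 and PACS2, all fell in DU145, and BRF1 and PACS2 lost the call with the trend in GC content and length removed. INF2, a formin that nucleates and severs actin, had 286, 292 and 344 CPM in DU145 GFP high libraries, against 403, 384 and 423 CPM in DU145 GFP low libraries (-0.40 ± 0.09, limma adjusted p = 0.0110). SIVA1, a pro-apoptotic protein, had 95.5, 101 and 124 CPM in GFP high cells, against 156, 135 and 141 CPM in GFP low cells (-0.44 ± 0.11, limma adjusted p = 0.0155). AKT1, a kinase of growth and survival signalling, had 333, 343 and 415 CPM in DU145 GFP high libraries, against 481, 436 and 505 CPM in DU145 GFP low libraries (-0.39 ± 0.10, limma adjusted p = 0.0142). All 3 were without overlap.

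BRF1, a subunit of the factor that recruits RNA polymerase III, had 79.6, 72.8 and 83.4 CPM in DU145 GFP high libraries, against 107, 90.7 and 105 CPM in DU145 GFP low libraries (-0.36 ± 0.09, limma adjusted p = 0.0143). It lies beyond AKT1 and overlaps PACS2, a sorting protein of membrane contacts, on the other strand. PACS2 fell by 0.35 ± 0.10 (limma adjusted p = 0.0211). With the trend removed the differences were -0.10 ± 0.07 for BRF1 (limma adjusted p = 0.322) and -0.18 ± 0.07 for PACS2 (limma adjusted p = 0.0622). In PC3, INF2 had 141, 146 and 132 CPM in GFP high cells, against 159, 190 and 156 CPM in GFP low cells, and AKT1 had 283, 287 and 268 CPM in GFP high cells, against 308, 359 and 299 CPM in GFP low cells. SIVA1 had 79.5, 79.1 and 73.1 CPM in PC3 GFP high cells, against 85.5, 104 and 83.6 CPM in PC3 GFP low cells. These 3 did not overlap in PC3 either, and BRF1 did, at 65.9, 63.2 and 64.5 CPM in GFP high cells, against 65.3, 76.4 and 67.3 CPM in GFP low cells.

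The remaining members that fell in DU145 were METTL3, PSMB5, ACIN1, XRCC3, LRP10, HNRNPC, DYNC1H1 and DAD1, by 0.20 to 0.39 on the log2 scale, with limma adjusted p-values between 0.0205 and 0.0408. HNRNPC had 703, 776 and 807 CPM in DU145 GFP high cells, against 921, 871 and 885 CPM in DU145 GFP low cells, though it was not lower in PC3. PSMB5 had 144, 155 and 192 CPM in DU145 GFP high cells, against 231, 199 and 211 CPM in DU145 GFP low cells. DYNC1H1 had 1100, 1154 and 1023 CPM in DU145 GFP high cells, against 1311, 1185 and 1298 CPM in DU145 GFP low cells, and its difference of -0.21 ± 0.07 turned to 0.064 under quantile normalization. With the trend in GC content and length removed, ACIN1 and XRCC3 stood at -0.11 ± 0.05 and -0.06 ± 0.06 and no longer passed (limma adjusted p = 0.0997 and 0.513). ACIN1 is an exon-junction protein, and DAD1 a subunit of the oligosaccharyltransferase that adds sugars to proteins.

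MARK3, a kinase of microtubule-associated proteins and cell polarity, was the member that rose in DU145. It had 93.9, 102 and 86.6 CPM in DU145 GFP high libraries, against 72.3, 80.4 and 70.7 CPM in DU145 GFP low libraries (0.34 ± 0.09, limma adjusted p = 0.0157), with no overlap. In PC3 it had 68.7, 65.7 and 73.5 CPM in GFP high cells, against 88.3, 79.4 and 86.0 CPM in GFP low cells, all lower. With the trend in GC content and length removed, MARK3 no longer passed the test. TEP1 had the same reversal of order, with 30.7, 30.8 and 31.1 CPM in PC3 GFP high cells, against 31.8, 36.7 and 35.6 CPM in PC3 GFP low cells, and 52.8, 55.8 and 52.7 CPM in DU145 GFP high cells, against 50.4, 45.3 and 45.5 CPM in DU145 GFP low cells, but its DU145 difference of 0.19 ± 0.09 did not pass (limma adjusted p = 0.103).

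The level of the members in PC3 against DU145, averaged over both sorts, is a contrast other than the sort that chose them. Both contrasts use the same PC3 libraries. CKB and SALL2 stood far lower in PC3, and RBM23, SUPT16H and GMPR2 were the highest in PC3 among the calls. In all, 25 members were lower in PC3, 12 were higher and 15 did not pass the limma test at an adjusted p of 0.05. Over all genes 38.3% were lower and 39.2% higher. NDRG2, in 14q11-q12, is counted among the 25 but passed the minimum through DU145 alone, so that its direction was fixed by the filter. Without it 24 of 51 members were lower. The blocks differed in their counts. In 14q32, 13 of 16 members were lower and 0 higher (limma; also 0 at an unadjusted p of 0.05 and 0 by voom), and in 14q11-q12, 12 of 36 were lower and 12 higher. Base composition moved with that split. Among other genes in the middle GC range of the 14q32 members (54.2 to 62.4%), 61.2% were lower in PC3 and 14.3% higher, and in the range of the 14q11-q12 members (46.3 to 54.1%), 46.0% were lower and 27.3% higher. The trend in GC content and length was removed within each line, which leaves differences between the lines in place, with the median of all genes still 0.01. That fit therefore cannot show the part of base composition in the split. In it 14 members of 14q32 were lower and 1 higher, and 13 members of 14q11-q12 were lower and 14 higher. Over all genes 40.5% were lower and 41.0% higher. The 6 PC3 libraries lay wholly below the 6 DU145 libraries for 13 members (25.0% of all genes) and wholly above for 3 (21.8% of all genes). With every library at the same median, which moved the median of all genes from 0.01 to -0.13, 6 members were higher in place of 12.

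NDRG2, a differentiation-linked protein of the NDRG family, had 3 estimated counts over the 6 PC3 libraries, from 2 of them, against 912 over the 6 DU145 libraries. Its PC3 level was 0.286% of the DU145 level, with an exact 95% interval of 0.0588 to 0.837% that covers counting error only. CKB had 43.0, 48.1 and 54.4 CPM in DU145 GFP high cells and 70.8, 66.0 and 81.3 CPM in DU145 GFP low cells, far above the PC3 values given earlier, and the log2 difference of PC3 over DU145 was -4.74 ± 0.20 (limma adjusted p = 1.2e-10). SALL2, a zinc finger transcription factor, had 0.760, 1.58 and 2.02 CPM in PC3 GFP high cells and 1.66, 2.04 and 1.46 CPM in PC3 GFP low cells, against 22.8, 24.0 and 24.2 CPM in DU145 GFP high cells and 27.2, 25.4 and 32.6 CPM in DU145 GFP low cells (-4.09 ± 0.20, limma adjusted p = 6.3e-10). For none of the 3 did any PC3 library reach the lowest DU145 library.

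RBM23, a splicing-related RNA-binding protein, had 25.9, 23.2 and 23.6 CPM in PC3 GFP high cells and 27.1, 26.7 and 25.2 CPM in PC3 GFP low cells, against 10.4, 13.8 and 12.9 CPM in DU145 GFP high cells and 15.5, 10.6 and 11 CPM in DU145 GFP low cells (1.04 ± 0.11, limma adjusted p = 1.1e-06). SUPT16H had 278, 281 and 214 CPM in DU145 GFP high cells and 207, 233 and 193 CPM in DU145 GFP low cells, below every PC3 library (0.55 ± 0.08, limma adjusted p = 2.2e-05). GMPR2 was higher in PC3 by 0.53 ± 0.08 (limma adjusted p = 2.6e-05), but its PC3 GFP high libraries reached down into the range of the DU145 libraries.

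After CKB and SALL2 among the members with counts in both lines came PACS2 at -1.28 ± 0.07, INF2 at -1.20 ± 0.06 and PPP1R13B at -1.05 ± 0.06, all in 14q32, lower in PC3 and without overlap. TRAF3, the member that stood higher in PC3 GFP high cells, was lower in PC3 than in DU145, at -0.87 ± 0.05. METTL3 was lower in PC3 at -0.89 ± 0.05, with 101, 95.9 and 105 CPM in DU145 GFP high cells and 128, 114 and 120 CPM in DU145 GFP low cells. Of the 37 members called between the lines, 28 kept their call and direction under every alternative. DYNC1H1, at -0.20 ± 0.05, turned to 0.0019 under quantile normalization.

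Members act with proteins encoded elsewhere in the genome, and a list of such partners and paralogs was followed beside them. Of 97 listed genes, 95 were in the table, lay outside chromosome 14 and were tested. In the PC3 sort 2 of the 95 fell and 4 rose (limma, adjusted p of 0.05), against 5.27% and 4.17% of all genes, their median was 0.02, and 42 were below 0. SHARPIN, which forms LUBAC with the member RNF31, fell by 0.61 ± 0.13 (limma adjusted p = 0.0106), and STAT2, which pairs with the member IRF9, fell by 0.37 ± 0.11 (limma adjusted p = 0.0479). Risen in PC3 GFP high cells were DKC1, the telomerase RNA-binding protein dyskerin, by 0.37 ± 0.08 (limma adjusted p = 0.00739), and PSMB9, the immunoproteasome subunit, by 1.67 ± 0.40 (limma adjusted p = 0.0180). CHD7, a relative of CHD8, rose by 0.39 ± 0.10 (limma adjusted p = 0.0316), and PSMB2 by 0.24 ± 0.07 (limma adjusted p = 0.0325). These counts are small and ranged from 1 to 6 lower and from 1 to 13 higher among the alternatives.

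Within the proteasome, the 24 subunits encoded elsewhere had a median of 0.03 in the PC3 sort. By limma 0 were called lower (also 0 at an unadjusted p of 0.05 and 0 by voom) and 2 higher. The chromosome 14 members PSMB5, PSME1 and PSME2 stood at 80.9%, 79.7% and 92.9% of their GFP low level. They belong to a list chosen as lower in this same sort, so nothing is read from the contrast with the other subunits. In DU145 the subunits elsewhere had a median of -0.23, with 9 lower (37.5%) and 1 higher (4.17%) by limma. Among all genes 13.9% were lower and 13.1% higher. The 6 partners of METTL3 in the m6A writer had a median of 0.01 in PC3 and 0.44 in DU145, where WTAP rose by 0.42 (limma adjusted p = 0.00347) while METTL3 fell. DU145 differences followed GC content, and these 6 had a median GC of 41.2%, against 48.5% of all tested genes. With the trend in GC content and length removed, 3 of the 95 partners were higher in DU145, in place of 12. The share of all genes called higher moved as well, to 6.67% in place of 13.1%. The part of GC content in the m6A list was not tested. The paralogs of AKT1, MARK3, CDC42BPB and PACS2 had a median of -0.24 in PC3 over 10 genes, with 0 calls by limma and by voom and 1 gene at an unadjusted p of 0.05, and MARK4 and MARK1, the ones with the smallest p, had limma adjusted p-values of 0.207 and 0.265. In the lists of NEDD8 conjugation and of augmin and dynein there were 0 calls in PC3 by limma and 0 by voom. At an unadjusted p of 0.05 there were 1 and 0 genes, and the smallest limma adjusted p-values were 0.145 for COPS5 and 0.261 for DYNC1I2.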

How the data were processed

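RNA of 12 libraries was sequenced from GFP-sorted PC3 and DU145 cells. Per the submitters' processing notes, STAR and DESeq2 were used; versions, genome build, strand and counter: not given in the sources used here. The values are log2 normalized counts deposited by the authors. From the values, they were read as log2 CPM with 0.5 added to each count before scaling. Estimated counts recovered from them were whole within 0.01 for 86.4 to 88.0% of genes per library and fractional for the rest. CPM printed here is the deposited value taken out of the log2 scale.

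The 52 members, the roles and the list of partners were chosen with earlier results of these data known. Genes with a log2 value of at least 0 in 3 or more of the 12 libraries entered limma 3.58.1 under R 4.3.3, fitted by lmFit and eBayes with a trend, with 4 group means, 8 residual degrees of freedom, two-sided, and Benjamini-Hochberg adjustment over 12527 genes at 0.05. Values after ± on the log2 scale are standard errors. Groups were called without overlap when every library of one lay beyond every library of the other. Positions, GC content and length came from GENCODE 29 (GRCh38), matched by identifier for 18901 of 18950 genes. Promoter sequences came from RefSeq (GRCh38.p14). The fit was tested on simulated data.

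Named members follow a fixed rule: the 6 lowest and 3 highest in the PC3 sort, up to 8 with the smallest p in DU145, the 3 highest and 3 lowest between the lines, and the highest of each role; other members were named as neighbours or by role. The rule also names the 3 non-members of the blocks with the largest fall and rise in PC3, and 2 partners of each list; some of the listed genes are not reported here. Alternatives were no minimum, a minimum of 4 on the log2 scale (16 CPM), equal medians, quantile normalization, a loess correction for GC content and length (span 0.4), the replicate block, no mean-variance trend, each line alone, an offset of 8 counts, voom on the estimated counts with the authors' scaled totals, and leaving out each library. Of the members, 26 overlap another gene of the table, and 22 had fractional estimated counts in at least 1 library.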

Additional observations from a re-analysis of the deposited data

Results flagged for a closer look

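For TEP1 and MARK3 every PC3 GFP high library lay below every PC3 GFP low library, while every DU145 GFP high library lay above every DU145 GFP low library. The log2 difference in PC3 minus that in DU145 was -0.36 for TEP1 and -0.62 for MARK3. The difference between lines was not tested, because the PC3 sort chose these genes.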

How the results depend on the processing

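The direction of the members' median held under all 23 alternatives in both lines: it ranged from -0.27 to -0.20 in the PC3 sort and from -0.30 to -0.13 in the DU145 sort. Counts moved more. At equal medians 16 members were without overlap in PC3 in place of 33. Members lower in DU145 numbered 4 under quantile normalization, 9 with no mean-variance trend and 2 to 25 on leaving out a library, in place of 16; members higher in DU145 numbered 3 under quantile normalization, 2 with the GC and length trend removed and 0 to 4 on leaving out a library, in place of 1. Of all genes, those lower in DU145 numbered 1098 under quantile normalization, 1303 with no mean-variance trend and 511 to 2820 on leaving out a library, in place of 1742. Members higher in PC3 than in DU145 numbered 6 at equal medians in place of 12. DYNC1H1 reversed under quantile normalization, to 0.064 in the DU145 sort and 0.0019 between the lines. Over all genes, equal medians gave 412 lower and 509 higher calls in PC3 in place of 660 and 522, and 2305 lower and 1313 higher in DU145 in place of 1742 and 1647. Partners lower in PC3 numbered 1 with no minimum, at equal medians, under quantile normalization, with no trend and with each line alone, 5 with the GC and length trend removed and 1 to 2 on leaving out a library, in place of 2; those higher numbered 10 with the GC and length trend removed, 2 with no trend, 1 with each line alone and 1 to 4 on leaving out a library, in place of 4. Partners lower in DU145 numbered 5 under quantile normalization, 11 with no trend and 5 to 30 on leaving out a library, in place of 21; those higher numbered 3 with the GC and length trend removed, 7 with no trend and 1 to 23 on leaving out a library, in place of 12. Of all genes, those higher in DU145 numbered 836 with the GC and length trend removed and 1169 with no trend, in place of 1647. The cause of these moves was not tested.

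Whether the replicate numbers pair the libraries is not settled. Same-numbered sorts correlated at 0.059, 0.20 and 0.14 in PC3 and at -0.020, 0.091 and 0.21 in DU145. In PC3 each library correlated best with its own number. In DU145 not all did, as GFP high replicate 1 correlated best with GFP low replicate 2, at 0.18. The main fit used no pairing. With the replicate block, 20 members were lower and 4 higher in DU145 and 22 partners higher; all genes gave 912 lower and 639 higher calls in PC3 and 2368 lower and 2474 higher in DU145. The replicate block with the GC and length trend removed gave 2 members higher in DU145, 6 partners lower and 13 higher in PC3, and 6 partners higher in DU145. Depth limits NDRG2 in PC3, and the rarer members MDP1 and IRF9 rest on few counts.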
